A study of Mus musculus with 6 samples.

Results

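The amino acid transporter families Slc1a, Slc3a, Slc6a, Slc7a, Slc36a, Slc38a and Slc43a were followed in mouse B-cell acute lymphoblastic leukaemia cells across fed control, 1-day fasting and 2-day fasting. Members were chosen by symbol, a family prefix followed by a number, which gave 62 genes among the 37732 that could be joined across the 6 libraries. Slc7a6os, named only for lying opposite Slc7a6, is no family member and was left out. The 3 groups share one model: C57BL/6 mice carried transplanted lineage-negative fetal liver cells with N-Myc and a GFP reporter, and GFP-positive, B220-positive cells were sorted from bone marrow. Control mice were normally fed, and the other groups differ from them in a fast of 1 or 2 days. Each group has 2 deposited libraries, called run 1 and run 2. The runs of a group differed by little more than read-sampling noise for most genes, so a group counts as 1 sample. No p-value is therefore given, and the differences between groups were not checked in independent replicates. How many mice stand behind a library, and their age, is not stated in the labels.

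These families move amino acids across the plasma membrane and out of lysosomes. Slc7a light chains work as pairs with a heavy chain of the Slc3a family, and most of them are exchangers that let one amino acid in for another that leaves. Slc1a, Slc6a and Slc38a carriers draw on ion gradients and can concentrate their substrates, and some Slc36a carriers use protons. Slc43a proteins are facilitators that let large neutral amino acids or nucleobases pass down a gradient. Leukaemia cells depend on such uptake for protein synthesis, and leucine, arginine and glutamine supply is read by the mTORC1 and GCN2 sensing pathways.

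Of the 62 members, 33 passed the filter on low counts and 24 were expressed, meaning a mean of the 3 group levels of at least 1 CPM (total gene reads per library, put on one scale by TMM factors). A member is called higher or lower where the mean level and each run differed by at least 1.5-fold in the same direction, with 0.1 CPM added to each level. At 1 day 3 of the 24 were called higher than control (12.5%, where 3.51% of 11741 genes at the same minimum level were) and 0 were called lower (1.9% of all genes). At 2 days 4 were called higher (16.7%, against 8.53% of all genes) and 2 lower (8.33%, against 8.79%). The median log2 fold of the 24 was 0.11 at 1 day and 0.07 at 2 days, beside 0.00 and 0.01 over all 11741 genes. Between the fasted groups 1 member was called higher at 2 days (4.17%, against 4.64% of all genes) and 2 lower (8.33%, against 7.27%). These 3 comparisons share samples, so their counts are not independent. Slc7a15, which had 0 exon reads, was among the 3 higher at 1 day and the 2 lower between the fasted groups. On exon reads, as on unique reads, 2 were called higher at 1 day.

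The members called on exon reads were the taurine carrier Slc6a6, the glycine carrier Slc6a9, the leucine-type facilitator Slc43a2 and the alanine and serine carrier Slc1a4, all higher in fasted cells, and the facilitator Slc43a1 and the cystine carrier Slc7a11, both lower at 2 days. The 5 members most abundant per exon length differed by less than 1.5-fold in all 3 comparisons. Over the 72 pairs of runs, one pair for each expressed member and group, the log2 difference between run 1 and run 2 had a median size of 0.0457 and was under 0.15 in 60 pairs. Where groups are said not to overlap below, runs of 1 sample per group are compared. Spread between mice is not measured by that, and small differences can separate well-read genes.

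**Figure D1:**
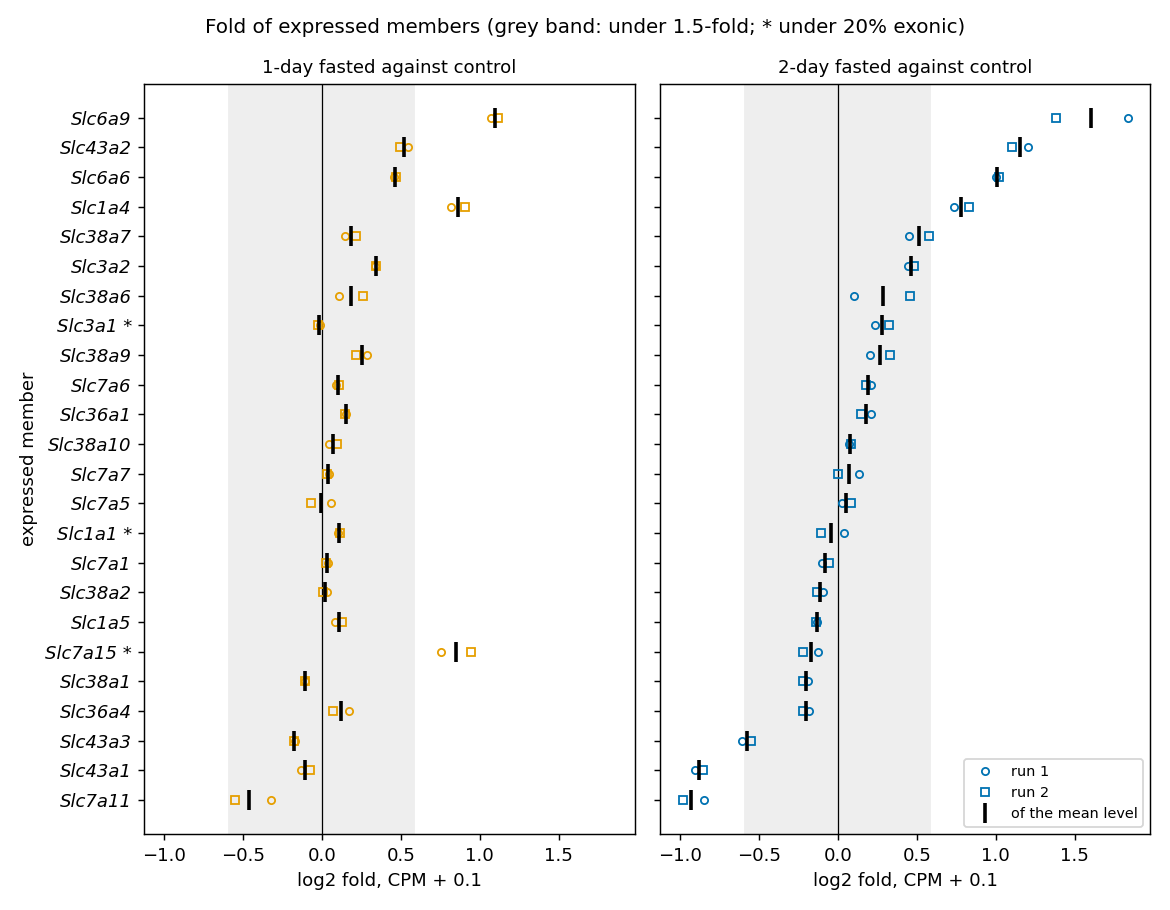
Log2 fold of the 24 expressed members (rows) at 1 day (left) and 2 days (right) against fed control, on levels with 0.1 CPM added; circles and squares are run 1 and run 2, black ticks the fold of the mean level, and the grey band is under 1.5-fold. Slc6a9, Slc43a2, Slc6a6 and Slc1a4 lie right of the band at 2 days and Slc43a1 and Slc7a11 left of it, while most members lie inside it.

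Per exon length, levels among the expressed members were uneven. By the authors' RPKM (total gene reads over exon length and library size), Slc1a5, which encodes the glutamine carrier ASCT2, was the highest at 125 and 124 in control, 134 and 137 at 1 day and 116 in both 2-day runs. The sodium-coupled carrier Slc38a2 (SNAT2) followed, at 81.5 and 82.3, 84.1 and 83.9, and 77.3 and 76.8 RPKM in the same order. The heavy chain Slc3a2 (CD98hc) came next over the groups, at 38.5 and 38.1, 49.04 and 48.97, and 52.9 and 54.4 RPKM. Together these 3 genes held 48.9% to 50.7% of the summed RPKM of all 62 members in every library, and all members' reads made up 0.250% to 0.269% of gene reads. Slc7a6, Slc38a1, Slc6a6, Slc7a1 and Slc43a3 were next, with group means averaging 40.4, 37.97, 28.8, 26.4 and 25.8 RPKM. Neighbours in that order were not all apart: Slc7a6 and Slc38a1 exchanged places between control and the fasted groups, and at 2 days the runs of Slc6a6, at 39.97 and 39.8 RPKM, lay above those of Slc38a1, at 36.3 and 35.1.

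**Figure D2:**
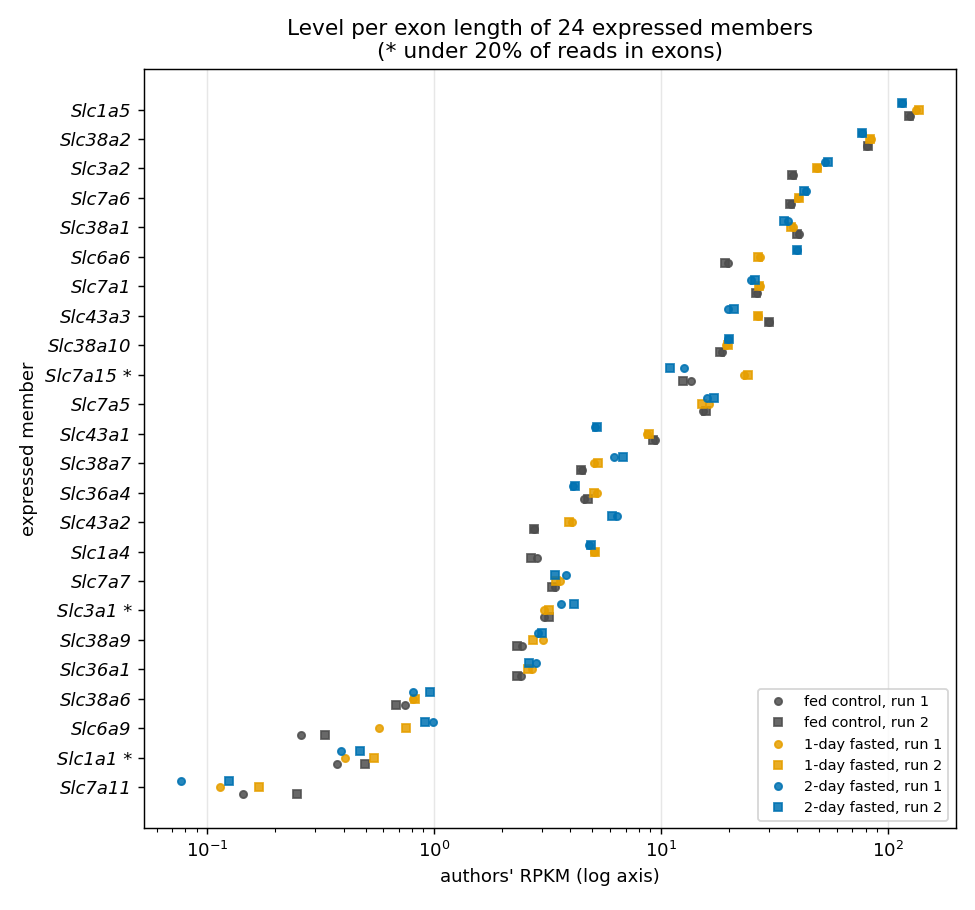
Authors' RPKM (horizontal log axis) of the 24 expressed members in each of the 6 libraries, ordered by mean; circles are run 1, squares run 2, colours the groups, and stars mark members with under 20% of reads in exons. Levels span from Slc7a11 at the bottom to Slc1a5 at the top, and the colours separate most for Slc6a6, Slc43a2, Slc6a9, Slc43a1 and Slc7a15.

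Family sums differed from control in different directions. The Slc6a sum was 20.4 RPKM in control, 28.4 after 1 day and 41.3 after 2 days, nearly all of it Slc6a6. The Slc3a sum was 41.4, 52.1 and 57.5 RPKM, and the Slc43a sum 42.2, 39.7 and 31.9. Slc38a, the largest family sum, was 149 in control, 151 after 1 day and 143 after 2 days. Slc1a was 128, 141 and 121, and Slc36a 7.14, 7.97 and 7.03. The Slc7a sum of 96.2, 111 and 101 RPKM includes intronic reads of Slc7a15. Over members with mostly exonic reads, the Slc7a sum was 83.1, 87.4 and 89.3.

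**Figure D3:**
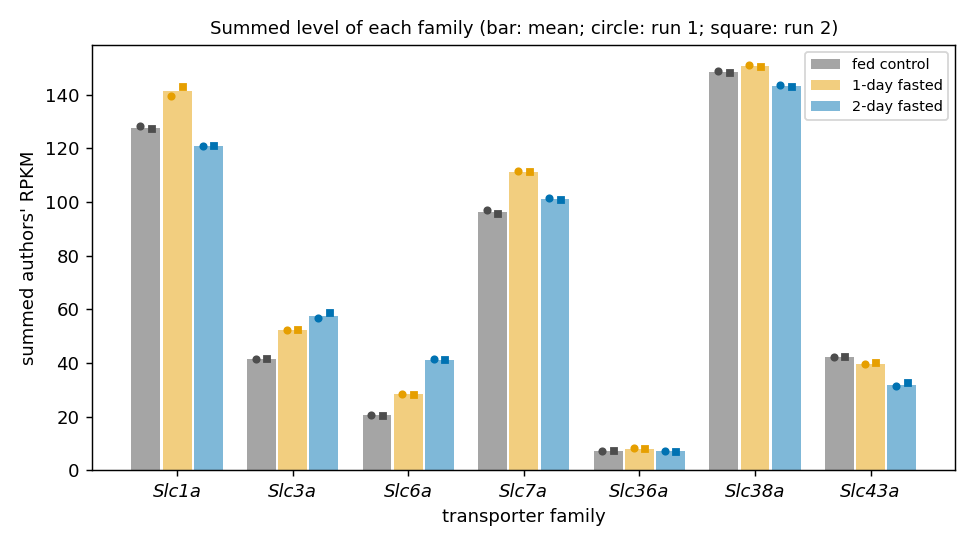
Authors' RPKM summed over the members of each family (vertical axis, from 0); bars are group means, circles run 1 and squares run 2. Slc6a and Slc3a were highest and Slc43a lowest at 2 days, while Slc1a and Slc7a were highest at 1 day.

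Facilitators of the Slc43a family gave opposite values at 2 days. Slc43a2 encodes LAT4 and Slc43a1 encodes LAT3, both sodium-independent carriers of leucine and other large neutral amino acids. Slc43a2 (chromosome 11, 75531694 to 75577575 of mm10) stood at 29.7 and 29.8 CPM in the control runs, 43.4 and 42.1 at 1 day and 68.6 and 64.1 at 2 days. The 3 groups did not overlap, and the log2 fold was 0.52 at 1 day, short of the call, and 1.16 at 2 days (1.20 in run 1 and 1.10 in run 2). The ratio of pooled reads at 2 days was 2.25 (95% exact interval 2.13 to 2.38, covering counting error only). Slc43a1 (chromosome 2, 84838850 to 84863594) stood at 58.1 and 56.6 CPM in control, 52.97 and 53.8 after 1 day and 30.99 and 31.4 after 2 days. Its log2 fold was −0.10 at 1 day and −0.88 at 2 days (−0.91 and −0.85), with both 2-day libraries far under the 4 others. Against 1 day, the 2-day log2 folds were 0.63 for Slc43a2 and −0.77 for Slc43a1, both called. The first lies close to the threshold of 0.585 and the call is lost (0.584) without 2-day run 1.

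Per length of exon the order of these facilitators was exchanged. By the authors' RPKM, Slc43a2 stood at 2.76 in control against 9.35 for Slc43a1, a ratio of 0.291 in run 1 and 0.299 in run 2. At 1 day the ratio was 0.466 and 0.445, and at 2 days 1.26 and 1.16, with 6.27 RPKM for Slc43a2 against 5.17 for Slc43a1. The remaining member, Slc43a3, is known as a carrier of purine nucleobases and lies 73.0 kb downstream of Slc43a1 on the same strand. It stood at 143 and 144 CPM in control, 127 and 128 after 1 day and 94.0 and 98.8 after 2 days. Its log2 fold at 2 days was −0.58 (−0.61 and −0.55), just short of the threshold in the mean and in run 2, and it is called (−0.61) when 2-day run 2 is left out. The other pair of expressed members within 150 kb of each other, Slc38a1 and Slc38a2 on chromosome 15, had log2 folds of −0.20 and −0.11 at 2 days.

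RefSeq promoter windows on GRCm38.p6, from 250 bases before to 50 after the start site, were matched for 44 of the 62 members (65 windows) and 19 of the 24 expressed ones (29 windows). They were searched on both strands for TGATGNAA, a form of the element bound by ATF4 in amino acid response genes, and for CACGTG, the E-box read by Myc and the TFE family. TGATGNAA was in 3.97% of all 32851 windows, 6.15% of member windows and 13.8% of those of expressed members (4 of 29). The shares count windows, not genes: the 4 belong to Slc1a4, Slc7a11 and Slc7a7, and the matching Slc7a7 windows overlap each other. CACGTG was in 7.15% of all windows, 13.8% of member windows and 10.3% of those of expressed members (3 of 29). A match is a description of letters, not a bound site. The windows of both leucine-type facilitators are shown because their levels differed in opposite directions, 5′ to 3′ on the gene's strand with matches in capitals: chr11:75531444-75531743 on the plus strand for Slc43a2, with no match, and chr2:84840073-84840372 on the plus strand for Slc43a1, a start site inside the gene's deposited span, with CACGTG beginning 64 bases before the start site.
Slc43a2: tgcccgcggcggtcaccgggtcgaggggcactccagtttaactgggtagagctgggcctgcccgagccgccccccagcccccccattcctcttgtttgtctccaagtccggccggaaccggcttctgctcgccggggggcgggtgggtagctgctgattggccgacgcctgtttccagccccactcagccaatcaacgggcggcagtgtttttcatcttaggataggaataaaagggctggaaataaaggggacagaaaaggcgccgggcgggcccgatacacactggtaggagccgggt
Slc43a1: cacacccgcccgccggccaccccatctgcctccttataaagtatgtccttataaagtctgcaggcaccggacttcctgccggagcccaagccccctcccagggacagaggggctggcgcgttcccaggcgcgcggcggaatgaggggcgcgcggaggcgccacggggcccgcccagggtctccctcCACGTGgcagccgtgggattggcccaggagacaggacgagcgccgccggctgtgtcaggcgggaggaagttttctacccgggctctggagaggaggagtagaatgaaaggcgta

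**Figure D4:**
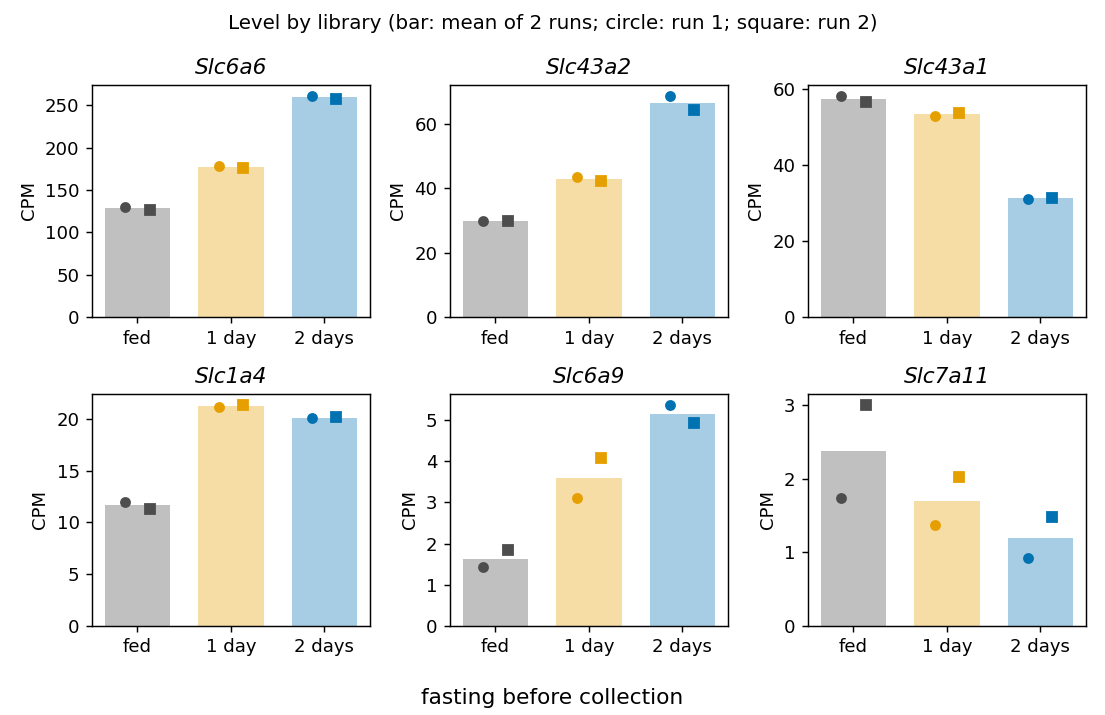
Level in CPM (vertical axes, from 0) of 6 members in fed, 1-day and 2-day fasted cells; bars are the mean of a group's runs, circles run 1 and squares run 2. Slc6a6, Slc43a2 and Slc6a9 were highest at 2 days, Slc1a4 was at about the same level on both fasting days, and Slc43a1 and Slc7a11 were lowest at 2 days.

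The Slc6a family couples uptake to sodium and chloride and includes carriers of neurotransmitters, taurine, creatine and betaine beside amino acids. Only 2 of its 20 members were expressed, and both were called. Slc6a6, the taurine transporter TauT (chromosome 6, 91684067 to 91759063), stood at 130.5 and 127 CPM in control, 179 and 176 after 1 day and 261 and 258 after 2 days. The groups did not overlap, with a log2 fold of 0.46 at 1 day (0.46 and 0.47, short of the call) and 1.01 at 2 days (1.00 and 1.02). The ratio of pooled reads at 2 days was 2.03 (1.97 to 2.08), from 14559 reads against 8329, the most precise of the called members. Between the fasted groups its log2 fold was 0.55 in each run, just under the threshold.

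Slc6a9, the glycine transporter GlyT1 (chromosome 4, 117834506 to 117875198), was at a lower level, 1.43 and 1.84 CPM in control, 3.12 and 4.09 after 1 day and 5.38 and 4.95 after 2 days. Its log2 fold was 1.10 at 1 day (1.07 and 1.11) and 1.60 at 2 days (1.84 and 1.38), from 110, 271 and 293 reads. Of its reads 21.7% were counted as unique, and a gene on the other strand, Gm17114, overlaps 81.7% of it. The protein-coding B4galt2, also on the other strand, overlaps 14.6% of it and had 213, 285 and 105 reads. On unique reads Slc6a9 had 26, 53 and 67 reads and log2 folds of 0.74 and 1.37, and it was still called at both times. Erythroid cells are known to use GlyT1, and some of their markers differed in the same libraries. Of 13 expressed erythroid markers, 0 were called at 1 day and 5 were called higher at 2 days, the globin genes Hba-a1, Hba-a2, Hbb-bs and Hbb-bt, whose near-identical copies can share reads, and Alas2 of haem synthesis. Over all 11741 genes, 8.53% were called higher at 2 days. The summed level of the 14 listed markers was 1089 and 1096 CPM in control, 1206 and 1199 after 1 day and 1726 and 1714 after 2 days, with none at 0. Most of that sum came from the 4 globin genes and from Tfrc, the transferrin receptor that other dividing cells also use, which stood at 633, 621 and 708 CPM. The list did not differ one way at 2 days: the log2 fold was −0.51 for the erythroid transcription factor Klf1, −0.38 for Ermap, −0.19 for the erythropoietin receptor Epor and −0.11 for Hemgn, none of them called. The part of these cells in the Slc6a9 difference was not tested. In such bulk samples fewer cells of a type and less RNA per cell cannot be told apart.

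Slc1a4 and Slc1a5 encode the neutral amino acid exchangers ASCT1, for alanine, serine and cysteine, and ASCT2, for glutamine. Slc1a4 (chromosome 11, 20302180 to 20332713) stood at 12.02 and 11.4 CPM in control, 21.2 and 21.4 after 1 day and 20.1 and 20.3 after 2 days. Both fasted groups were above control in every library and lay close to each other, with log2 folds of 0.86 (0.82 and 0.91) and 0.78 (0.74 and 0.83) against control and −0.08 between them. Slc1a5 stood at 557 and 553 CPM in control, 592 and 604 after 1 day and 510 and 504 after 2 days. Its log2 folds were 0.11 and −0.13, far under the call, although its groups did not overlap. By the authors' RPKM, Slc1a4 was at 2.77, 5.12 and 4.87 and Slc1a5 at 125, 136 and 116, so that Slc1a5 was the more abundant in every library.

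The Slc1a4 window and that of the cystine carrier Slc7a11 hold TGATGNAA in one orientation or the other, and they are shown together because these members differed in opposite directions. Slc7a11 was added after its values were seen. Capitals mark the matches in chr11:20332664-20332963 on the minus strand for Slc1a4, beginning 4 bases before the start site, and in chr3:50443564-50443863 on the minus strand for Slc7a11, beginning 66 and 47 bases before it. The remaining matches to TGATGNAA among expressed members were in windows of Slc7a7, whose log2 folds were 0.04 and 0.07.
Slc1a4: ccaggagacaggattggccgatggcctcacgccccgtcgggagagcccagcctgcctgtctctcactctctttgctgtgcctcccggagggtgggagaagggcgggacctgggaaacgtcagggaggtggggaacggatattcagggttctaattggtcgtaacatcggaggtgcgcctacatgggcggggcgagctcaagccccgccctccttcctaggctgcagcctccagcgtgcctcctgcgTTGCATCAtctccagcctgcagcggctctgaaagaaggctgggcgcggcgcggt
Slc7a11: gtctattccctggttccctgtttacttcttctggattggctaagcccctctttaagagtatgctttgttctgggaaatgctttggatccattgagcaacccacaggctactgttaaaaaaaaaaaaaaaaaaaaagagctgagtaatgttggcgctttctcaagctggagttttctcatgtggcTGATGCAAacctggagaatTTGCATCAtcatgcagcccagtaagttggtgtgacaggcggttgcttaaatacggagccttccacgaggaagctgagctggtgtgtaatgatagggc

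Slc7a11 encodes xCT (chromosome 3, 50364936 to 50443613), the light chain that imports cystine in exchange for glutamate, and was near the limit of expression. It stood at 1.74 and 3.01 CPM in control, 1.37 and 2.02 after 1 day and 0.919 and 1.47 after 2 days, from 166, 129 and 62 reads. Run 2 lay above run 1 in each group, and the 1-day runs overlap with those of both other groups, while control and 2 days do not overlap. Its log2 fold was −0.46 at 1 day, short of the call, and −0.93 at 2 days (−0.85 and −0.98). Pooled control reads over 2-day reads gave a ratio of 2.31 (1.71 to 3.14). The 2-day call is lost without control run 2, with a log2 fold of −0.50, and the control runs of this gene were the most discordant of the 72 pairs, 0.76 apart on the log2 scale.

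The other light chains with exonic reads, and their heavy chain, were not called. Slc3a2 encodes CD98hc, which carries the Slc7a light chains to the cell surface, and stood at 122 and 121 CPM in control, 154 in both 1-day runs and 166 and 169 after 2 days. Its 3 groups did not overlap, but its log2 folds of 0.34 (0.33 and 0.35) and 0.46 (0.44 and 0.48) are under the threshold. Slc7a5, the leucine exchanger LAT1, stood at 61.4 and 62.9 CPM in control, 63.9 and 59.95 after 1 day and 62.6 and 66.5 after 2 days, so that the groups overlap and the log2 folds were 0.00 and 0.06. Slc7a5 lies wholly inside Gm20388, a gene on the other strand, and 69.4% of its reads were counted as unique. On unique reads the log2 folds of Slc7a5 were 0.01 and 0.06. Slc7a6, the light chain y+LAT2 that exchanges arginine for glutamine, stood at 150 and 148 CPM in control, 160 in both 1-day runs and 173 and 168 after 2 days. Its log2 folds of 0.10 and 0.19 are small, though no library of one group reached into another. Slc7a7, the arginine and lysine exporter y+LAT1, differed by 0.04 and 0.07. The summed RPKM of the light chains that pair with CD98hc (Slc7a5, Slc7a6, Slc7a7, Slc7a8, Slc7a10 and Slc7a11) over that of Slc3a2 was 1.47 and 1.49 in control, 1.23 and 1.22 after 1 day and 1.20 and 1.17 after 2 days. Both fasted groups were thus below control in that ratio. Slc7a1, the arginine and lysine carrier CAT1 that needs no heavy chain, stood at 214 and 213 CPM in control, 220 and 217 after 1 day and 200 and 205 after 2 days, with log2 folds of 0.03 and −0.08.

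None of the 6 expressed members of the sodium-coupled Slc38a family was called. Slc38a2 stood at 404 and 408 CPM in control, 413 and 411 after 1 day and 379 and 373 after 2 days, with log2 folds of 0.02 and −0.11. Slc38a1, the glutamine carrier SNAT1, stood at 367 and 359 CPM in control, 341 and 334 after 1 day and 323 and 309 after 2 days, lower in each fasted group but by log2 folds of only −0.11 and −0.20. Per exon length Slc38a2 was above Slc38a1 by 2.03-fold in control, 2.22-fold at 1 day and 2.16-fold at 2 days. Slc38a7, which exports glutamine and asparagine from lysosomes, stood at 20.04 and 19.9 CPM in control, 22.2 and 23.1 after 1 day and 27.4 and 29.8 after 2 days. Its groups did not overlap and its 2-day log2 fold of 0.52 (0.45 and 0.58) came nearest to the call in the family. Slc38a9, the lysosomal arginine sensor of mTORC1, differed by 0.25 and 0.27. The less characterised Slc38a6 and Slc38a10 differed by 0.18 and 0.28, and by 0.07 and 0.08. The proton-coupled carrier Slc36a1 (PAT1, on lysosomes and the plasma membrane) had log2 folds of 0.15 and 0.18. Those of Slc36a4 (PAT4, for proline and tryptophan) were 0.12 and −0.20. The expressed Slc36a and Slc38a members known from lysosomes thus differed by less than 1.5-fold at both times.

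The reads of 3 of the 24 expressed members lay mostly outside exons, and their levels are no measure of a spliced transporter message. Slc7a15, a light chain-like protein (chromosome 12, 8528483 to 8599066), stood at 43.8 and 40.1 CPM in control, 74.03 and 77.1 after 1 day and 40.1 and 34.4 after 2 days, and was called higher at 1 day (log2 fold 0.85) and lower between 1 and 2 days (−1.02). It had 0 exon reads and 0 junction reads among 10367, and 29.7% of its reads were counted as unique. An antisense gene of the GENCODE annotation, 5033421B08Rik, covers 48.5% of it. On unique reads the 1-day call is lost, since the log2 fold of the mean (0.66) passes the threshold but not each run does. Slc1a1, the glutamate and aspartate carrier EAAC1, had 0.172% of its 582 reads in exons, and Slc3a1, the heavy chain rBAT, 12.8%. Neither labels nor file headers say whether counting used strand, so reads of a member and of an overlapping gene cannot be told apart. The other 21 had 57.3% to 99.5% of reads in exons, and on exon reads the 2-day log2 folds were 1.05 for Slc6a6, 1.18 for Slc43a2, 1.79 for Slc6a9, 0.77 for Slc1a4, −0.88 for Slc43a1 and −0.91 for Slc7a11, all still called.

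**Figure D5:**
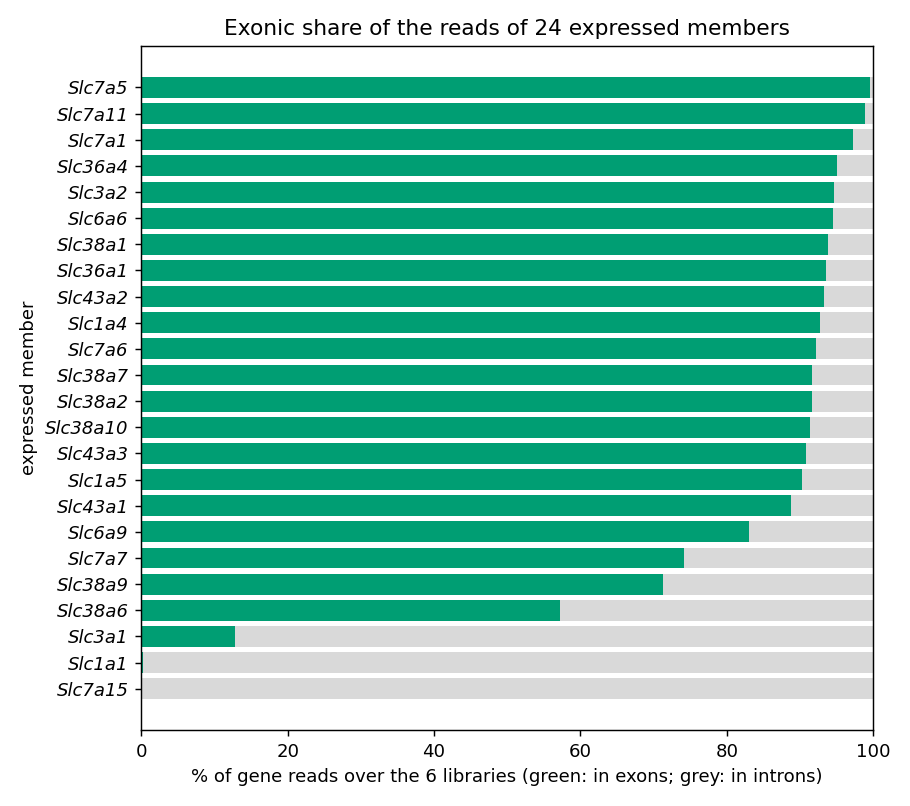
Share of gene reads in exons (green) and introns (grey) over the 6 libraries for each expressed member, in percent. In Slc7a15, Slc1a1 and Slc3a1 the green share is 0%, 0.172% and 12.8%, and in the others it is at least 57.3%.

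The remaining 38 members were under 1 CPM, and 9 of them passed the filter on low counts, with mean levels of 0.252 to 0.574 CPM and 48 to 119 reads in all. The others had at most 22 reads each, and 6 had none in any library, Slc1a7, Slc6a14, Slc6a3, Slc6a18, Slc7a14 and Slc7a10. Of the 9, 6 met the fold rule in a comparison with control, on few reads, as did 37.0% of the 2495 genes under 1 CPM that passed the filter. By comparison, 2 were higher (7.98% of those genes) and 0 lower (6.97%) at 1 day, and 2 were higher (14.2%) and 3 lower (16.4%) at 2 days. Between the fasted groups 0 were higher (10.3%) and 2, Slc38a8 and Slc6a13, were lower at 2 days (14.8%). Slc38a8 (SNAT8) had 38 reads in control, 30 after 1 day and 0 after 2 days, at least 10.9-fold lower at 2 days against a floor of 3 reads over the group. Slc6a13, the GABA carrier GAT2, had 58, 55 and 6 reads, a control over 2-day ratio of 8.33 (3.60 to 23.6). Slc6a8, the creatine carrier, had 33, 30 and 13 reads and was called lower at 2 days. The cationic carrier Slc7a3 (CAT3) had 15, 35 and 30 reads and was called higher at both times, Slc38a5 (SNAT5), a glutamine carrier, had 16, 35 and 25 and was called higher at 1 day, and Slc36a3 (PAT3) had 11, 23 and 23 and was called higher at 2 days.

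Genes around the transporters, on lists drawn up with earlier results of these data known, gave counts to read beside the same background. Of all 11741 genes at 1 CPM or more, 3.51% were called higher and 1.9% lower at 1 day. At 2 days these shares were 8.53% and 8.79%. Of 30 expressed targets of ATF4, the transcription factor that GCN2 signalling raises on amino acid shortage, 6 were called higher and 1 lower at 1 day (median log2 fold 0.21), and 5 higher and 3 lower at 2 days (median 0.09). Asns, asparagine synthetase, stood at 14.1 CPM in control, 23.5 after 1 day and 8.47 after 2 days, and Atf3, a stress-induced transcription factor, at 2.47, 20.2 and 6.00. Stc2, a secreted glycoprotein, stood at 10.6, 6.47 and 1.01 CPM. Cebpb, a transcription factor, stood at 6.10, 9.24 and 16.9 CPM and was called higher at 2 days (log2 fold 1.45). Atf4 itself was at 218, 269.9 and 202 CPM and was not called. Among 35 expressed genes of GCN2 and mTORC1 sensing, 3 were called higher and 0 lower at 1 day, and 1 higher and 1 lower at 2 days. The Sestrin gene Sesn2 and Ddit4, an mTORC1 inhibitor, are on both lists and were called higher at 1 day (0.65 and 0.77). The 2-day low was Rragd, a Rag GTPase subunit that couples lysosomal amino acids to mTORC1, at 24.6, 22.9 and 2.15 CPM. Among 12 expressed carriers of amino acids or peptides from other families, 2 were called higher and 1 lower at 1 day, and 1 higher and 4 lower at 2 days. The lowest was the peptide carrier Slc15a2, at 50.3, 56.3 and 0.736 CPM (2-day log2 fold −5.91). The lysosomal cystine carrier Ctns, at 10.7, 16.9 and 15.85 CPM, was called higher at 1 day (log2 fold 0.65). Of 5 expressed accessory proteins of these transporters, 0 were called at either time.

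Facts of the libraries set the frame for these values. Total gene reads per library ran from 19368326 to 45862844. Of 10 listed B-lineage markers, 9 were matched among the joined genes, and Ebf1 was not. All 9 were expressed, with a summed level of 6049 to 6359 CPM over the libraries. Of these 1, the adaptor Blnk, was called, lower at 2 days (−0.60). Mycn stood at 2175, 2107 and 2275 CPM. Markers of other cells were present and differed between groups: of 13 expressed neutrophil markers 5 were called lower at 1 day and 2 higher at 2 days, and of 7 monocyte, macrophage and dendritic cell markers 2 were higher at 1 day and 6 at 2 days. Over all 11741 genes the shares were 3.51% higher and 1.9% lower at 1 day, and 8.53% and 8.79% at 2 days. Of 15 T and NK cell markers 3 were expressed, Cd247, Lat and Tcf7, of which 1 was lower at 1 day and 3 at 2 days. The defining T cell genes Cd3e, Cd3d, Cd3g, Cd4 and Cd8a had means of 0.236 to 0.483 CPM. The NK cell genes Ncr1, Klrb1c and Klrd1, with means of 0.448 to 0.597 CPM, were called higher at 1 day, with log2 folds of 2.21, 2.00 and 1.37, as was Cd3d, with 0.86. Cd4 was called lower at 1 day (−1.31), and Cd3e, Cd3g, Cd8a and the NK cell gene Nkg7 were not called then. At 2 days Cd3e, Cd3g and Cd8a were called lower. Of genes under 1 CPM that passed the filter, 7.98% were called higher and 6.97% lower at 1 day, and 16.4% lower at 2 days. The summed monocyte list was at 41.05 to 41.9 CPM in control, 42.0 to 44.002 at 1 day and 68.9 to 70.5 at 2 days. No listed marker was at 0 in all libraries, and the single expressed markers of megakaryocytes and of stroma were not called. The part of these cells in the transporter differences was not tested.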

How the data were processed

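Single-end RNA-seq reads of sorted leukaemia cells were aligned with TopHat2 to mm10, per the submitters' processing notes. The authors deposited read counts per gene in several classes (total or unique reads of the gene, exons, junctions and introns), per the file headers. The deposited RPKM is, by its values, total gene reads (introns included) over exon length and library size, and it was used where an exon RPKM had been planned. The counting program, annotation and strand setting are not stated in labels or headers.

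Genes of run 1 (38355) and run 2 (38924) were joined by position (37429) or name (303). The 37732 joined genes hold at least 95.4% of each library's gene reads. The squared difference of a group's runs over its sampling variance had a median of 1.09 to 1.10 for unique reads and 1.35 to 1.38 for total reads, against at least 5.89 between groups, so each group was counted as 1 sample. Total gene reads were scaled to CPM with TMM factors (edgeR 4.0.16, R 4.3.3). The filterByExpr filter, minimum count 10, kept 14236 genes, 11741 of them at a mean of at least 1 CPM. Intervals of ratios are exact binomial at 95% and cover counting error only. Scripts were tested on simulated data.

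The members, gene lists and fold rule were chosen with earlier results of these data known. Library values are given for expressed members called in any comparison and for the 8 highest by RPKM; members under 1 CPM are named if called, as are at most 6 called genes of a list at 5 CPM or more. Slc7a5, Slc38a7 and Atf4 were added after their values were seen. Alternatives were DESeq2 1.42.0 size factors, no filter, a 5 CPM minimum, a 1 CPM pseudocount, unique or exon reads, RPKM, a 2-fold threshold and leaving out each library.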

Additional observations from a re-analysis of the deposited data

Results flagged for a closer look

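Asns, the asparagine synthetase gene on the list of ATF4 targets, was called higher at 1 day and lower at 2 days against control, in both runs each time. Its log2 fold was 0.73 at 1 day and −0.73 at 2 days, from 905 control, 1705 1-day and 478 2-day reads. The difference between the days was not tested, since each group is 1 sample.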

How the results depend on the processing

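The main counts of expressed members were 3 higher and 0 lower at 1 day, 4 and 2 at 2 days, and 1 and 2 between the fasted groups, with median log2 folds of 0.11, 0.07 and 0.01. Exon reads and unique reads each gave 2 higher at 1 day, without Slc7a15. A 2-fold threshold gave 1 higher at 1 day, 0 lower at 2 days, and 0 higher and 0 lower between the fasted groups. At 2 days 1 was lower with a 5 CPM minimum, a 1 CPM pseudocount or the authors' RPKM. Between the fasted groups 0 were higher with no filter on low counts and 1 was lower on exon reads, where Slc7a15 has none. The 2-day median was 0.0688 with DESeq2 size factors, 0.0649 with no filter, 0.0777 with a 5 CPM minimum, 0.071 with a 1 CPM pseudocount, 0.0884 on unique reads, 0.12 on exon reads and 0.10 in RPKM. Leaving out each library in turn, the counts were 3 to 3 higher and 0 to 0 lower at 1 day, 4 to 4 higher and 1 to 3 lower at 2 days, and 0 to 2 higher and 2 to 2 lower between the fasted groups. The medians then ran from 0.10 to 0.11, from 0.0749 to 0.12 and from −0.0316 to 0.0267. The cause was not tested.

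Of 504 values of 14 named members under the alternatives, 0 changed sign and 44 moved by over 0.1. Leaving out a library of a group outside the comparison cannot alter a fold, so those values were fixed in advance. Leaving out a run inside the comparison also drops that run from the call rule. The 2-day calls of Slc43a2 and Slc6a6 against control held under all 14 alternatives, although leaving out a 1-day run could not alter them. Those of Slc1a4 and Slc43a1 were lost only at 2-fold, and those of Slc6a9 at both times only under the 5 CPM minimum, which its level does not reach. The Slc7a11 call was lost under 5, including that minimum and without control run 2. No paired analysis was possible because each group is 1 sample and the results come from no test. Depth limits the members under 1 CPM, whose calls rest on at most 119 reads.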
